A study of Mus musculus with 7 samples.

Results

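The genes described here encode the oligoadenylate synthetase (OAS) family, interferon-induced enzymes that sense double-stranded RNA. On binding such RNA the active members join ATP into short oligoadenylates, second messengers that lead to the breakdown of viral and cellular RNA and slow protein synthesis. The OAS-like proteins carry a ubiquitin-like tail, and in the mouse Oasl2 has kept synthetase activity whereas Oasl1 has not and acts instead as a translational inhibitor of Irf7. The family is known as part of the interferon response of macrophages, lymphocytes and epithelial cells alike. The members are the 8 genes Oas1a, Oas1b, Oas1c, Oas1g, Oas2, Oas3, Oasl1 and Oasl2, taken by symbol from the 56422 gene symbols of the deposited table, and all 8 passed the filter on low values. The family was selected on its TPM in treated against control libraries, so that difference is given for the members as a description, without a test of its own. Calls of members in the fit over all genes are not read as tests.

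Messenger RNA had been sequenced from 7 samples whose labels give CD8+ T cells as the cell type, isolated from ascites fluid in a mouse model of cancer spread to the peritoneum. The series concerns mannose, gut microbial metabolites and PD-1 blockade in ovarian cancer. The 4 control libraries came from untreated models, and the 3 treated libraries followed treatment with both propionate and butyrate, short-chain fatty acids that gut bacteria make. Strain, age, tumour line, dose and duration are not given in the sources used here, nor whether each library came from its own animal, so p-values measure only the spread among these libraries, part of which may be technical. Expression was in TPM, transcript abundance per unit of length, with a common total for all libraries, so genes can be compared with each other but the depth is unknown. The markers did not match a pure CD8+ T cell sample. The mean over controls was 14.1 TPM for Cd8a, which encodes part of the CD8 co-receptor itself, but for Apoe, an abundant macrophage transcript, it was 5056 TPM and for Krt19, an epithelial keratin, 680 TPM. A pair of libraries stood apart. Mitochondrially encoded genes held 32.9% of TPM in the third treated library and 13.6% to 18.2% in the other 6, and the summed TPM of 14 macrophage markers was 15092 in control replicate 3 against 6205 to 7054 in the other controls. In bulk RNA, fewer cells of a type and less RNA per cell cannot be told apart.

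Promoter sequences are shown first because they carry a feature that some members share and others lack, and that their selection did not use. Windows of 250 bases before to 50 bases after the annotated start were matched by symbol in a RefSeq table of build GRCm38.p6, an earlier build than the mm39 named for the expression values, and 6 of the 8 members had one. Each window was searched on both strands for GAAA, any 2 bases and GAAA again, the core of the interferon-stimulated response element, counting overlapping matches. Of the 6, the windows of Oas1a, Oas1g, Oas1c and Oas3 held the motif, whereas 3.44% of all 32851 windows did. The stretches below end at the base before each start and run 5′ to 3′ on the gene's own strand, and capitals mark the motif.
Oas1a, chr5:120907526-120907625, minus strand: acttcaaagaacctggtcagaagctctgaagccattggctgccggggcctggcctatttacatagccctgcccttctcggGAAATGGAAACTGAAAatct
Oas1g, chr5:120887614-120887713, minus strand: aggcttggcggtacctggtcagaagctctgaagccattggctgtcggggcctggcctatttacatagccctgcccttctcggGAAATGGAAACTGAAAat
Oas1c, chr5:120812515-120812634, minus strand: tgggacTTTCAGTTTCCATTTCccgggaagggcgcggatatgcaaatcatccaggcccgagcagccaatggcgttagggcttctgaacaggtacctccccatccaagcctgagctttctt
Oas3, chr5:120777660-120777759, minus strand: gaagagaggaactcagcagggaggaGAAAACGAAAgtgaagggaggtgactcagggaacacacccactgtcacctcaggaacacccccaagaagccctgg
Oasl2, chr5:114896834-114896933, plus strand: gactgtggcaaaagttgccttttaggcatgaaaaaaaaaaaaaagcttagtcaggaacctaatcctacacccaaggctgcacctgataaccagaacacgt

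The first 3 promoters shared more than the motif. Oas1a and Oas1g each held 2 overlapping matches, the first beginning 20 bases before the start of Oas1a and 18 before that of Oas1g, and their windows had a run of 73 bases in common. The Oas1c stretch held the same pair of matches on the opposite strand. A run of 19 bases around the matches was identical in the Oas1a and Oas1g windows and, on the other strand, in the Oas1c window, and 3 of the 32851 windows contained it, namely these. The Oas1c stretch is also the whole interval, 120 bases, between the starts of Oas1c and its divergently transcribed neighbour Oas1b. Here the Oas1c start is that of its RefSeq window and the Oas1b start that of GENCODE's annotation of GRCm38. Read towards Oas1b, the shared run began 25 bases before the Oas1b start, close to its place in Oas1a (23 bases) and Oas1g (21 bases). Oas3 held 1 match, 75 bases before its start. Oasl1 and Oasl2 held none, which says only that these letters are not in these windows. For comparison, 12 of 27 other antiviral interferon-stimulated genes with a window held the motif.

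All 8 members were at 1 TPM or more in every library, and 1 of them supplied most of the family's RNA. Oasl2 made up 69.6% to 80.7% of the summed TPM of the family in single libraries, and the family as a whole 0.0167% to 0.0317% of all TPM. In control libraries the mean levels ran from Oasl2 at 223 TPM through Oas1a (16.6), Oas2 (13), Oas1g (11.8), Oas3 (8.26), Oas1b (7.21) and Oasl1 (6.27) to Oas1c (5.23). Among neighbours in that order, only Oasl2 and Oas1a, and Oas1g and Oas3, were further apart than the larger of their SDs. In treated libraries Oasl2 (150 TPM) and Oas1a (11.8) led again, followed by Oas1b (7.61), Oas1c (7.5), Oas3 (7.37), Oas2 (6.59), Oas1g (5.55) and Oasl1 (1.73). There the steps from Oasl2 to Oas1a, from Oas1a to Oas1b and from Oas1g to Oasl1 exceeded the larger SD. The other 4 OAS1 paralogs were near silent. Oas1d, Oas1e and Oas1f were listed at 0 in all 7 libraries, and Oas1h reached no more than 0.13 TPM.

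**Figure D1:**
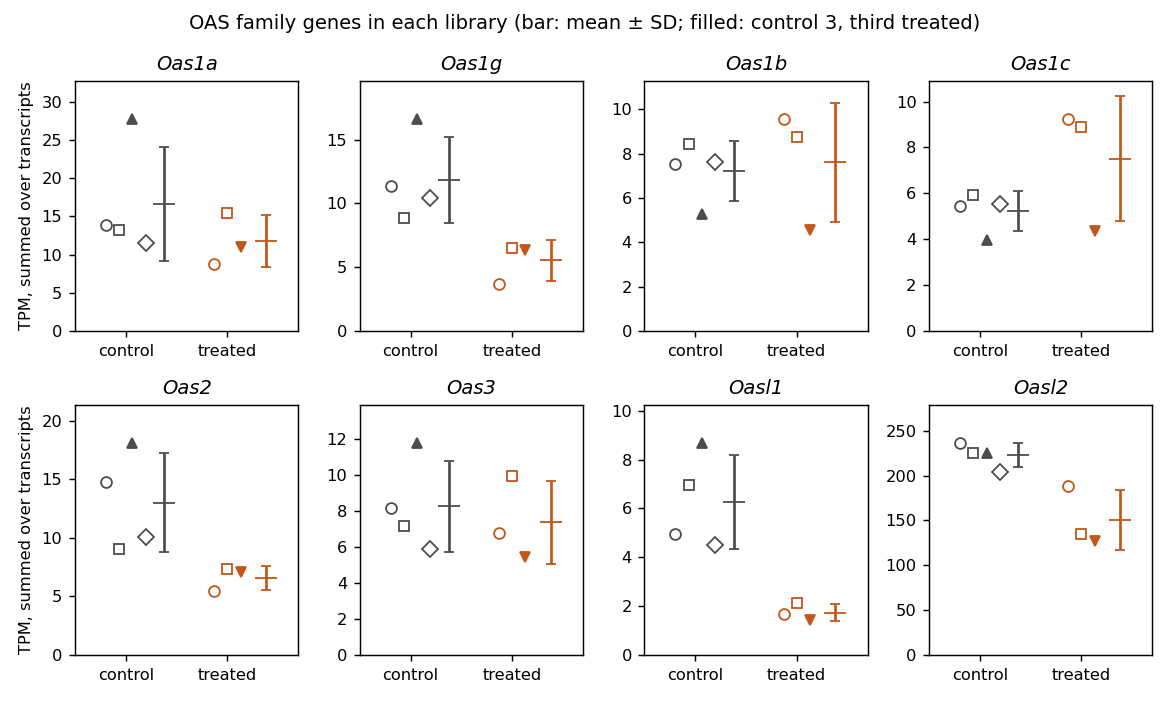
TPM of the 8 members in each library, with control libraries in grey and treated libraries in orange, bars giving mean ± SD (n = 4 and n = 3), and filled symbols marking control replicate 3 and the third treated library. The groups do not overlap for Oas1g, Oas2, Oasl1 and Oasl2, and Oas1b and Oas1c have their lowest control value in control replicate 3.

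The OAS-like genes were both lower in every treated library than in every control library. Oasl1 was at 4.96, 6.96, 8.68 and 4.49 TPM in control replicates 1 to 4 and at 1.67, 2.11 and 1.41 TPM in treated replicates 1 and 2 and the third treated library. Its lowest control value was above its highest treated value, and the log2 difference, treated minus control on the scale of log2(TPM + 1), was -1.38 (SE 0.25). This was the greatest difference among the members, with 0.8% of all tested genes below it. With a pseudocount of 5 instead of 1 it was -0.73, and with 0.1 it was -1.77.

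Oasl2, the most abundant member, was at 236, 225, 225 and 204 TPM in control replicates 1 to 4. It was at 189, 135 and 127 TPM in treated replicates 1 and 2 and the third treated library. The control libraries lay close together, with a coefficient of variation of 6.09%, and treated replicate 1 came nearest to them. The log2 difference was -0.58 (SE 0.20), and -0.33 after median-of-ratios scaling. Because Oasl1 differed more than Oasl2, the ratio of Oasl2 to Oasl1 was 26.0 to 47.7 in control and 64.1 to 113 in treated libraries.

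Oas2 and Oas3, whose proteins hold several copies of the synthetase unit in tandem, did not move alike. Oas2 was at 14.7, 9.05, 18.1 and 10.1 TPM in control replicates 1 to 4 and at 5.42, 7.31 and 7.05 TPM in treated replicates 1 and 2 and the third treated library. The groups did not overlap, and the log2 difference was -0.84 (SE 0.25). Oas3 was at 8.18, 7.16, 11.8 and 5.89 TPM in controls and at 6.76, 9.93 and 5.42 TPM in the treated libraries in the same order. These ranges overlapped almost wholly, and the log2 difference of -0.14 (SE 0.26) became 0.08 after median-of-ratios scaling. Without control replicate 3 the Oas3 difference was 0.03, and without the third treated library it was also 0.03.

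Oas1a and Oas1g, whose products are the active small synthetases of the mouse, are close copies. Their longest coding transcripts in GENCODE M21 were 97.6% identical over the aligned part, and 56.9% of the 50-base words of Oas1a occurred unchanged in Oas1g, so the split of reads between them is uncertain. Oas1a was at 13.9, 13.2, 27.7 and 11.6 TPM in control replicates 1 to 4 and at 8.74, 15.4 and 11.1 TPM in treated replicates 1 and 2 and the third treated library. Control replicate 3 stood above all others and the remaining values overlapped, with a log2 difference of -0.42 (SE 0.28), or -0.15 without that library. Oas1g was at 11.4, 8.85, 16.6 and 10.4 TPM in controls and at 3.72, 6.55 and 6.37 TPM in the treated libraries. All treated values were below all control values, and the log2 difference was -0.97 (SE 0.25). Their sum, which the split does not touch, was at 25.3, 22.0, 44.3 and 22.0 TPM in controls and at 12.5, 22.0 and 17.4 TPM in treated libraries, so that treated replicate 2 was level with the lowest controls. The ratio of Oas1a to Oas1g was 1.11 to 1.67 in control and 1.74 to 2.36 in treated libraries.

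Oas1b and Oas1c, the divergent neighbours shown above, were the 2 members without a lower mean in treated libraries. Oas1b is the flavivirus resistance gene, whose product is truncated by a premature stop in most laboratory mice, and Oas1c encodes a related small protein of the same family. Oas1b was at 7.53, 8.43, 5.26 and 7.63 TPM in control replicates 1 to 4 and at 9.55, 8.74 and 4.55 TPM in treated replicates 1 and 2 and the third treated library. Oas1c was at 5.47, 5.95, 3.97 and 5.52 TPM in controls and at 9.23, 8.91 and 4.37 TPM in the treated libraries. In both genes treated replicates 1 and 2 lay above every control, while the third treated library lay among or below the controls. The log2 differences were 0.03 (SE 0.26) for Oas1b and 0.40 (SE 0.26) for Oas1c, and without the third treated library they were 0.32 and 0.70. Without control replicate 3, or without either of the other treated libraries, the Oas1b difference was below 0, at -0.09 to -0.14. The ratio of Oas1b to Oas1c was 1.38, 1.42, 1.32 and 1.38 in controls and 1.03, 0.98 and 1.04 in treated libraries, a narrow range within each group and no overlap between them. Their transcripts share no 50-base word.

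Members lay on both sides of 0, and their counts are given beside those over all genes as a description only. Of the 8 members, 6 had a lower and 2 a higher log2 value, with a median difference of -0.50, whereas the median over all 14967 tested genes was -0.24. In 4 members the groups did not overlap, all 4 with lower treated values. Over all tested genes 25.7% were separated that way, 4.82% the other way and 30.5% in either direction. In the all-gene limma fit with Benjamini-Hochberg adjustment at a threshold of 0.05, Oasl1, Oas1g and Oas2 were among the genes called lower, 7.59% of those tested, and 0 members were among those called higher, 4.3% of those tested (11.9% in either direction). Since the selection used this contrast, nothing is read from these counts or from the distance of the family from all genes. The summed TPM of the family was 303, 285, 317 and 260 in control replicates 1 to 4 and 234, 194 and 167 in treated replicates 1 and 2 and the third treated library. These groups did not overlap, and the log2 difference of the sum was -0.56 (SE 0.19), which is -0.31 relative to the median of all genes. Median-of-ratios scaling moved that median to -0.02 and the sum to -0.31, leaving a distance of -0.28, and it changed the split of all called genes from 643 higher and 1136 lower to 1234 higher and 993 lower. Only Oasl1 was then among those called lower. The same held without control replicate 3 and without the third treated library, and in the latter case Oas1c was among those called higher. No member was called without a filter on low values or with the macrophage or pan-leukocyte covariate described below. Oas2 was not called with a pseudocount of 5, after rescaling without mitochondrially encoded genes or without control replicate 1. Without treated replicate 1 only Oasl1 and Oasl2 among the members were called lower. All these calls rest on the contrast that the selection used, so nothing is read from them for any member.

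**Figure D2:**
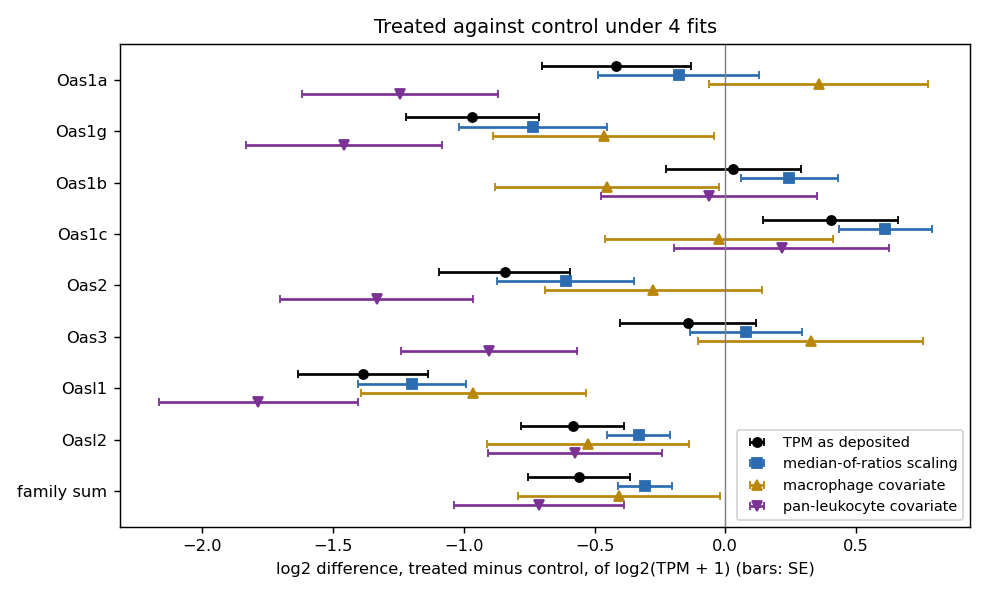
Log2 difference between treated and control libraries (horizontal axis, log2(TPM + 1), bars SE) for each member and the family sum under 4 fits. Oasl1, Oas1g, Oas2, Oasl2 and the sum lie below 0 in all 4, from -1.79 for Oasl1 with the pan-leukocyte covariate to -0.28 for Oas2 with the macrophage covariate, whereas Oas1a, Oas1b, Oas1c and Oas3 change sign between fits. Neither covariate overlaps between the groups, so the fits with one cannot tell treatment from covariate.

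Markers of other cells moved with the treatment in both directions, and their part in the members' differences was not tested. Summed macrophage markers, 14 genes with none at 0, were at 6205 to 15092 TPM in control and 3417 to 4188 TPM in treated libraries. Apoe (5056 TPM) and Lyz2 (2171 TPM) made up most of the control mean of 8651 TPM, so the sum mainly follows them. Of the 14 markers, 2 were called lower by limma (7.59% of all genes) and 0 higher. The log2 difference was below 0 in 12 and above 0 in 2, Adgre1 (0.14, SE 0.29) and Timd4 (0.11, SE 0.34). At an unadjusted p under the threshold, 5 of the 14 macrophage markers were lower and 0 higher. Among all 14967 tested genes 3539 were lower and 1028 higher at that threshold. Epithelial and mesothelial markers were at 2346 to 2810 TPM in control and 883 to 1683 TPM in treated libraries. Pan-leukocyte genes went the other way, from 226 to 536 TPM in control to 553 to 1560 TPM in treated libraries, and T cell genes from 139 to 242 TPM to 677 to 2870 TPM. With the log2 macrophage sum as a covariate, the differences of Oas2, Oas1g and Oasl1 were -0.28 (SE 0.41), -0.46 (SE 0.42) and -0.96 (SE 0.43) and that of Oas1a was 0.36 (SE 0.42). With the log2 pan-leukocyte sum as a covariate they were -1.33 (SE 0.37), -1.46 (SE 0.37), -1.79 (SE 0.38) and -1.24 (SE 0.37). Oasl2 moved little with either, at -0.52 (SE 0.39) and -0.57 (SE 0.33). Neither covariate overlapped between the groups, so these fits cannot tell the treatment from the covariate, and their values are not differences corrected for cell content.

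The 4 controls, which the selection did not compare with each other, differed in opposite directions for different members. Control replicate 3 had the highest value among controls in 5 members, at 2.15 times the mean of the other 3 controls for Oas1a, 1.67 for Oas3, 1.62 for Oas1g, 1.60 for Oas2 and 1.59 for Oasl1. It had the lowest value in 2 members, Oas1b (0.67 times) and Oas1c (0.70 times). Oasl2 was at 1.01 times. In the same library the summed macrophage markers were at 2.32 times, pan-leukocyte genes at 1.89 times, neutrophil markers at 7.17 times and T cell genes at 0.66 times the other controls, and the part of these cells in the members' values was not tested. Set against the other 2 treated libraries, the third treated library had Oas1b and Oas1c at 0.50 and 0.48 times, Oas3 at 0.65, Oasl1 at 0.75, Oasl2 at 0.78 and Oas1a at 0.91 times, and Oas2 and Oas1g at 1.11 and 1.24 times. In TPM, Oas1b and Oas1c were thus low in both libraries, whereas Oas3, Oasl1 and Oas1a were high in control replicate 3 but not in the third treated library. There summed macrophage markers were at 1.12 times, T cell genes at 0.33 times and pan-leukocyte genes at 0.47 times the other treated libraries. In the third treated library mitochondrially encoded genes held 32.9% of TPM, against 17.1% and 15.7% in treated replicates 1 and 2. With a common total this leaves less TPM for every other gene, and its part in these ratios was not tested. The ratios of both libraries rest on 1 library each.

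**Figure D3:**
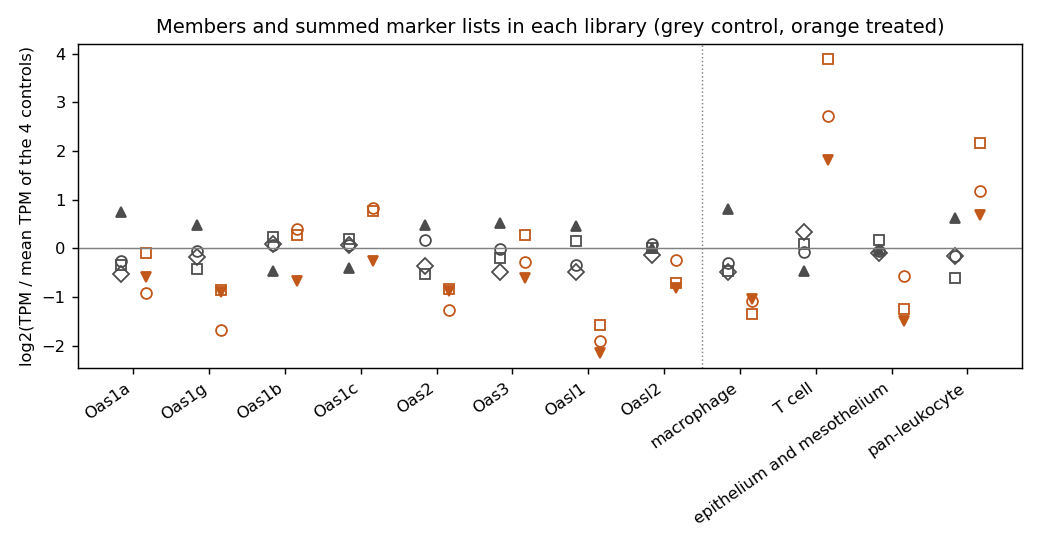
Log2 of TPM over the mean of the 4 controls (vertical axis) for the 8 members and, right of the dotted line, 4 summed marker lists, with control libraries grey, treated libraries orange, and control replicate 3 and the third treated library filled. Control replicate 3 lies above the other controls for Oas1a, Oas1g, Oas2, Oas3, Oasl1 and the macrophage sum and below them for Oas1b, Oas1c and the T cell sum.

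The deposited table lists 32 transcript rows for the members, without transcript identifiers. Oasl2 had 9 rows, all above 0 in some library, and its highest row held 52.4% of the gene's mean TPM in control and 43.8% in treated libraries. That row was at 99.0 to 125 TPM in control and 54.2 to 83.1 TPM in treated libraries, and its log2 difference was -0.83 against -0.58 for the whole gene. The third-highest row of Oasl2 overlapped between the groups, at 23.5 to 27.1 TPM in control and 15.9 to 30.0 TPM in treated libraries. Oas2 had a second row at 2.14 to 5.70 TPM in controls and 0 to 0.92 TPM in treated libraries, 26.7% and 9.0% of its mean TPM. The second row of Oas1g was at 3.13 to 6.10 TPM in control and 1.03 to 1.61 TPM in treated libraries. Oas1a had 1 row. The sources used here do not give how reads were assigned to overlapping transcripts.

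Abce1 and Pde12, which both limit the oligoadenylate response, did not pass the test in the limma fit. Abce1, an ATP-binding protein of ribosome recycling that also dampens the response to oligoadenylates, was at a mean of 27.9 TPM in control and 25.6 TPM in treated libraries and had a log2 difference of -0.14 (SE 0.22, limma adjusted p = 0.684), and Pde12, a phosphodiesterase that degrades oligoadenylates, one of 0.12 (SE 0.23, limma adjusted p = 0.745).

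Ligands of the type I interferon receptor, which induces the family, were barely seen. Of 15 interferon genes 11 were listed at 0 in all 7 libraries. Ifnb1 reached 0.14 TPM in control replicate 3 and was listed at 0 elsewhere, Ifna2 reached 0.17 TPM in the same library only, and Ifne stayed at or below 0.32 TPM. Ifng, the type II interferon of T and natural killer cells, was the 1 ligand tested and rose by 2.79 (SE 0.31, limma adjusted p = 0.000277), from 1.77 to 4.17 TPM in control to 17.8 to 44.0 TPM in treated libraries. T cell genes were higher in the same libraries, as given above. Plasmacytoid dendritic cells are the main producers of type I interferon. Their markers summed to 9.67 to 13.2 TPM in control and 13 to 31.0 TPM in treated libraries, ranges that overlapped. Siglech, Ccr9 and Pacsin1 had means of 1.09, 0.61 and 0.90 TPM in control and 3.18, 2.92 and 4.49 TPM in treated libraries. These 3 genes passed the filter only through the treated libraries, so their calls are not counted here. Klk1 and Cox6a2, at 0.45 and 0.40 TPM in control and 1.20 and 1.79 TPM in treated libraries, were not tested. Tcf4, the most abundant marker of that list, had a difference of 0.10 (SE 0.22, limma adjusted p = 0.78). It held 7.49 TPM of the control mean of 10.9 TPM, so the sum mainly follows Tcf4 there. Among 6 receptor chains 1 fell, Ifngr2 of the interferon gamma receptor, by 0.84 (SE 0.23, limma adjusted p = 0.0307), and 0 rose. Over all tested genes 7.59% were called lower and 4.3% higher, so a count in so short a list says little. With an unadjusted p under the threshold, 1 receptor chain was higher and 2 were lower, beside 1028 higher and 3539 lower of all 14967 genes. Ifngr1, the partner chain, had a difference in the other direction, 0.86 (SE 0.30, limma adjusted p = 0.0754), from 51.7 to 77.6 TPM in control to 62.4 to 194 TPM in treated libraries. It was called higher after median-of-ratios scaling (1.11, adjusted p = 0.0287), after rescaling without mitochondrially encoded genes (0.0393) and when 1 of the libraries that stood apart was left out, with an adjusted p of 0.0219 without control replicate 3 and, at a difference of 1.25, of 0.0329 without the third treated one. The Ifngr2 call was lost without control replicate 2 or 3, treated replicate 2 or the third treated library (limma adjusted p from 0.0568 to 0.0775). Ifnar1 and Ifnar2, the chains of the type I receptor, had log2 differences of 0.24 (SE 0.22) and -0.32 (SE 0.20), with limma adjusted p of 0.466 and 0.275, and after median-of-ratios scaling Ifnar1 was called higher (0.48, limma adjusted p = 0.0343).

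Downstream of the receptors no gene passed the test on the deposited TPM, and some did under other settings. Of 14 genes for kinases, STATs, interferon regulatory factors and feedback inhibitors, 0 were called by limma in either direction, against 11.9% of all genes. At an unadjusted p under the threshold 2 were higher and 2 lower, beside 1028 and 3539 of all 14967 genes. The median of the list was -0.03. Stat2 and Irf9, subunits of the transcription factor that binds the motif shown above, had log2 differences of -0.26 (SE 0.21) and -0.01 (SE 0.22), with limma adjusted p of 0.405 and 0.99. Irf7, the factor whose translation Oasl1 restrains, was at 22.9 to 49.5 TPM in control and 18.8 to 36.2 TPM in treated libraries, a difference of -0.29 (SE 0.27, limma adjusted p = 0.472). Jak1, a kinase bound to interferon receptors, had the greatest difference of the list, 0.71 (SE 0.26, limma adjusted p = 0.0882), and was called higher when the third treated library was left out (1.08, adjusted p = 0.0096), after median-of-ratios scaling (0.96, adjusted p = 0.0145) and after mitochondrial rescaling (0.0295). Irf2, an interferon regulatory factor, had a difference of 0.47 (SE 0.19, limma adjusted p = 0.107) and was called higher after the same 2 rescalings (adjusted p = 0.0206 and 0.016). Irf1 was called higher when the third treated library was left out (0.69, limma adjusted p = 0.0481), and without treated replicate 1 Irf5 was called lower (-0.69, limma adjusted p = 0.025). The 11 nucleic acid sensors and adaptors gave 0 calls by limma, again against 11.9% of all genes, and a median of 0.03. At an unadjusted p under the threshold 0 were higher and 1 lower. Mavs, the adaptor of the RNA sensors, was the lower one (-0.51) and was called after mitochondrial rescaling (limma adjusted p = 0.0472) and without treated replicate 1 (0.0393). Ifih1, which encodes the double-stranded RNA sensor MDA5, had a difference of -0.12 (SE 0.23, limma adjusted p = 0.759).

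Other antiviral interferon-stimulated genes lay on both sides of the all-gene median. Of 34 tested, 2 rose and 2 fell in the limma fit, against 4.3% and 7.59% of all genes, with a median of -0.15. Without a filter on low values no gene of the pathway lists was called. Isg20, an exonuclease that degrades viral RNA, fell by 0.94 (SE 0.21, limma adjusted p = 0.0103), from 29.1 to 41.1 TPM in control to 14.4 to 21.3 TPM in treated libraries. Ifitm3, a membrane protein that hinders viral fusion, fell by 0.90 (SE 0.24, limma adjusted p = 0.0294), a call lost without control replicate 3 (adjusted p = 0.0932), without any 1 of the treated libraries (0.0543 to 0.0711) and after median-of-ratios scaling (0.126). Sp100, a nuclear body protein, rose by 1.23 (SE 0.30, limma adjusted p = 0.018), and without treated replicate 2 by 0.83 with an adjusted p of 0.0573, so that the call was lost. Ifit1bl1, of the IFIT family, rose by 1.88 (SE 0.36, limma adjusted p = 0.0041). Isg15, the ubiquitin-like modifier, had a difference of -0.57 (SE 0.21, limma adjusted p = 0.0817), and was called lower after mitochondrial rescaling (adjusted p = 0.0419) and without treated replicate 1 (0.0334). Ifi44, another interferon-induced gene, was called lower under the same 2 settings (limma adjusted p = 0.0335 and 0.0164) and after median-of-ratios scaling (0.0457). The differences of Ifit1 and Mx1, both blockers of viral replication, were -0.13 (SE 0.20) and 0.32 (SE 0.27), with limma adjusted p of 0.686 and 0.436.

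**Figure D4:**
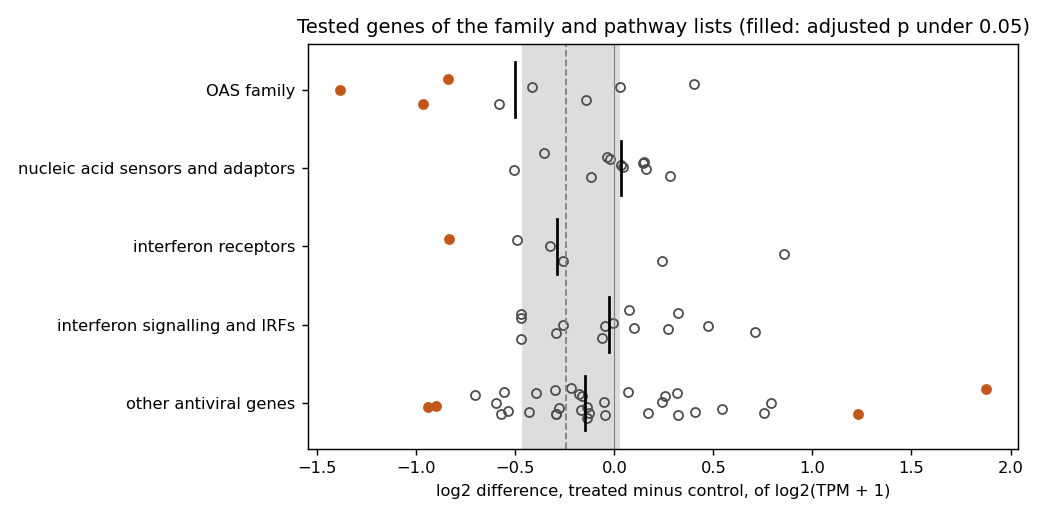
Log2 difference between treated and control libraries (horizontal axis) for the tested genes of the family and 4 pathway lists, with filled points at an adjusted p under 0.05, short black lines at list medians, and the dashed line and grey band at the median and quartiles of all tested genes (-0.46, -0.24 and 0.02). The family, which was selected on this difference, has members from -1.38 to 0.40, and the medians of the 4 lists lie between -0.29 for receptors and 0.03 for sensors.

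Outside the family, genes of other kinds followed the family sum most closely across the 7 libraries. Likeness was the root mean square difference, over the 7 libraries, between mean-centred log2(TPM + 1) values, and the family sum spanned 0.92 on that scale. Genes with clone or model numbers for names, microRNA genes and small nucleolar RNA genes were left out. The 5 nearest non-members kept were Csf1, the macrophage growth factor (0.051), Scrib, a cell polarity scaffold (0.053), Pald1 (0.057), Tmbim4 (0.061) and Jag1, a Notch ligand (0.063). Likeness to the sum includes the treated against control difference that the selection used. Over all tested genes 25.7% were lower in every treated library than in every control library. Csf1 was at 34.1 to 40.4 TPM in control and 20.5 to 29.0 TPM in treated libraries. Since Oasl2 dominates the sum, this is the pattern of Oasl2, which was at 0.075 from the sum, while the other members were at 0.34 (Oas3) to 0.55 (Oas1c).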

How the data were processed

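The authors deposited 1 table of TPM values, 149132 transcript rows with gene symbols for 7 libraries. Build mm39 and the programs fastp, HISAT2 and StringTie are named, without roles or versions, per the submitters' processing notes. Per the labels' protocols, poly(A) RNA was selected and stranded libraries were amplified by PCR. Columns were matched to samples by name. A column of treated values bears a replicate number found on no sample of that group and served, unnumbered, as the third treated library.

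TPM was summed per symbol, leaving out 1001 rows without one (0.306% to 0.618% of TPM). Genes at 1 TPM or more in at least 3 libraries were compared on log2(TPM + 1) in R 4.3.3 with limma 3.58.1, an intensity trend and Benjamini-Hochberg adjustment. The family sum took its SE from the same fit with the sum added. The model was tested on simulated data with independent noise for each gene. The simulation held no shift shared within a library, such as in cell content or mitochondrial share, so it does not cover such shifts. Biopython 1.88 aligned the transcripts. Members, lists and tests were chosen with earlier results of these data known. Named genes are the members and paralogs, genes of oligoadenylate turnover, called genes of the pathway lists, a set of genes fixed by name, the 5 most alike and 3 leading markers. Ifna2, Ifne, Ifngr1, Jak1, Irf1, Irf2, Irf5, Mavs and Ifi44 were named after their values were seen. So were Siglech, Ccr9, Pacsin1, Klk1, Cox6a2, Tcf4, Lyz2, Adgre1 and Timd4, from the marker lists. The 7 pathway lists hold 91 names, 3 of them older names of genes already listed. Results for some genes of the lists are not reported here.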

Additional observations from a re-analysis of the deposited data

Results flagged for a closer look

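Among 34 sets of 4 control values checked for a library far from the others (Dixon's criterion, critical value 0.829), 4 held one, and chance flags about 1 set in 20. Control replicate 3 was far above the other controls for Oas1a (27.72 TPM, the next at 13.91), for Oas1a plus Oas1g (44.31 TPM, the next at 25.3) and for summed macrophage markers (15091.97 TPM, the next at 7054.2). Ifit1bl1 was at 3.68 TPM in control replicate 4, the next control at 2.63.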

How the results depend on the processing

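The log2 difference of the family sum stayed below 0 under every alternative, from -0.71 with the pan-leukocyte covariate to -0.31 with median-of-ratios scaling, and moved by over 1 SD only with the latter. Of 144 values of single members under alternatives, 128 moved by less than 1 SD and 16 by more. Without a filter and with robust variance estimation the values were unchanged. With the macrophage covariate every member but Oasl2 moved by over 1 SD. With the pan-leukocyte covariate Oas1a, Oas1g, Oas2, Oas3 and Oasl1 did. The rest were Oasl1 with either other pseudocount and Oasl2 with median-of-ratios scaling or its highest transcript row only. Over all genes, 643 were higher and 1136 lower. Without a filter on low values, with 29687 genes tested, 3 were higher and 4 lower. The cause of these shifts was not tested. Rescaling without mitochondrially encoded genes gave 1915 lower, and median-of-ratios scaling 1234 higher. Leaving out single libraries gave 388 to 794 higher and 585 to 2909 lower, with 388 without treated replicate 2, 794 without control replicate 3 and 2909 without treated replicate 1. The count of lower genes was 585 to 730 without control replicate 1, 2 or 3, treated replicate 2 or the third treated library. In the 7 pathway lists 4 of 69 tested genes were higher and 3 lower, against 4.3% and 7.59% of all genes. There were 7 and 6 with mitochondrial rescaling, 12 higher with median-of-ratios scaling, and 0 and 0 without a filter (limma, 7 and 11 at an unadjusted p under the threshold). Leaving out single libraries gave 2 to 7 higher (2 without treated replicate 2, 7 without control replicate 3 or the third treated library) and 1 to 8 lower (1 without any of these 3, 8 without treated replicate 1). Without both libraries that stood apart (control replicate 3 and the third treated one), an alternative chosen after seeing the data, 267 were lower. The replicate numbers 1 and 2 do not pair the samples by the labels (correlations of deviations -0.02 and -0.09). With the replicate block, on 4 libraries only, 135 genes were lower, and in the pathway lists 0 were lower (limma, 4 at an unadjusted p under the threshold). Of 1035 values of single pathway genes, 24 lost and 33 gained a call and 0 reversed. Depth is unknown for TPM, so levels near 0 have no detection limit.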
